A study of Mus musculus with 24 samples.

Results

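The 9 genes described here belong to 3 families named after fly genes: sine oculis (Six2, Six4 and Six5), eyes absent (Eya1, Eya2, Eya3 and Eya4) and dachshund (Dach1 and Dach2). They were chosen by family and by their presence in a deposited table of 15736 genes, with earlier results of these data known. Not every gene of the 3 families is analysed here. The counts come from RNA sequencing of otocyst epithelium of mouse embryos. The otocyst is the closed vesicle that becomes the inner ear. Control embryos (con) were Rosa26rtTA/+, so they carried only the doxycycline-dependent activator rtTA at the Rosa26 locus. Experimental embryos (R2b) were Rosa26rtTA/+;Tg(tetO-s(dn)Fgfr2b)/+ and also made a secreted dominant-negative form of the receptor FGFR2b, which binds FGF ligands away from the cell. All pregnant females, and so both genotypes, received doxycycline, 1.5 mg/kg by injection and then chow with 200 mg/kg. Groups are named by the stage at injection and the hours until dissection, as E9.75+12h, E9.25+24h or E10.25+24h. The exposures begun at E9.75 and at E9.25 both end at E10.25. The otocysts of a litter were pooled into a con library and an R2b library, with 3 litters at E9.75+12h and 4 at each of the others, 22 libraries in all. A library is therefore a pool of embryos, rtTA acts in whatever cells use the Rosa26 locus, and fewer cells of a type cannot be told apart from less RNA per cell.

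Sine oculis proteins are homeodomain transcription factors, and EYA proteins are phosphatases that bind them and act as their coactivators. DACH proteins, relatives of the SKI corepressors, can join the same complexes and turn them toward repression. The network was first worked out in the fly eye and is used again in the kidney, in muscle and in the cranial placodes, including the otic placode. Loss of EYA1 function causes branchio-oto-renal syndrome, and mutations of EYA4 cause progressive hearing loss. Receptor FGFR2b is an epithelial receptor for ligands such as FGF3 and FGF10, which act during inner ear morphogenesis.

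Sequences just upstream of the annotated start are shown for Six2, the gene that fell most, and for Dach1 and Dach2, which rose together. They are RefSeq windows on GRCm38.p6, printed 5′ to 3′ on the gene's own strand, in lower case because neither motif searched occurs in them. Coordinates in the same order are chr17:85688275-85688504 on the minus strand, chr14:98169766-98170015 on the minus strand and chrX:113297260-113297509 on the plus strand.
Six2: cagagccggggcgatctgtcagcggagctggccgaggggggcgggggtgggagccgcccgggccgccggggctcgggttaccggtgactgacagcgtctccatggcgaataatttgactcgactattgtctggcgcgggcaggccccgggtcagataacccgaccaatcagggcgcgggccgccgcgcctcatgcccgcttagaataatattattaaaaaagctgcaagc
Dach1: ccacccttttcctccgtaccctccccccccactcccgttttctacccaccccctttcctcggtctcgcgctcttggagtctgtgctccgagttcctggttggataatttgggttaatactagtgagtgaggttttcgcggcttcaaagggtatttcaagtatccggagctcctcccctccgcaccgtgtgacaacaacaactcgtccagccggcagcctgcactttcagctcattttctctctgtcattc
Dach2: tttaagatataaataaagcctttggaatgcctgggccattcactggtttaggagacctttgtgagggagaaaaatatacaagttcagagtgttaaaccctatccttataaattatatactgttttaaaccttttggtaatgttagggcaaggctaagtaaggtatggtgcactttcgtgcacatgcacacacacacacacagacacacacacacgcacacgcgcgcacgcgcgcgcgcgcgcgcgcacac
The Six2 window was ended at the gene's start in the GENCODE annotation, leaving 230 bases, and the other windows are 250 bases long. G and C make up 64.8% of the Six2 window, 54.8% of the Dach1 window and 45.6% of the Dach2 window shown. That Dach2 window ends in a run of alternating purines and pyrimidines. A second RefSeq window of Dach2, chrX:113298006-113298255, lies past the gene's GENCODE start, has 67.6% G and C and is not shown. Windows were found for 7 of the 9 genes (10 windows in all). The motifs were the ETS core CCGGAA, bound by the FGF-induced factors ETV4 and ETV5, and the MEF3 site TCAGGTTTC, a SIX-binding site known from muscle genes. Both strands were searched. Of 32851 windows of 250 bases in the whole table, 12% held CCGGAA and 0.387% held the MEF3 letters. The searched windows were not cut at the GENCODE start, so some reach into the gene. Among the 9 genes, CCGGAA was found once in the Eya3 window and once in each Six4 window. The Eya3 match lies inside the gene by GENCODE, and so does that of the Six4 window with the MEF3 letters. The MEF3 letters were found once, in a window of Six4 whose RefSeq start is 211 bases from the GENCODE start. The stretch chr12:73113326-73113354 on the minus strand, inside the gene by GENCODE, carries their reverse complement, shown in capitals.
Six4: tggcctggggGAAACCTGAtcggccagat
These matches describe letters in short windows and were not tested against the expression data.

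Library totals ranged from 18.7 to 28.2 M counts, and each member passed the filter on low counts in every exposure. Levels are CPM, counts relative to the size of the library after TMM scaling (the trimmed mean of M-values), and R2b was compared with con within an exposure by edgeR's quasi-likelihood test, with a Benjamini-Hochberg adjusted p over all genes tested and a threshold of 0.05. The blockade was visible in the 9 FGF readout genes (Etv4, Etv5, Spry1, Spry2, Spry4, Dusp6, Spred1, Spred2 and Spred3), all lower in R2b at E9.75+12h (median log2 fold change -1.45) and at E9.25+24h (median -1.67). None passed at E10.25+24h (median -0.46, and -1.05 without litter 1). Reads of the transgene fall in Fgfr2 and in Ighg1, an immunoglobulin constant-region gene, because the secreted protein joins part of FGFR2b to an immunoglobulin chain. At E10.25+24h these reads go against the labels in litter 1, so the groups of that exposure are written as labelled. Epcam, an epithelial marker, stood between 290 and 522 CPM in the con libraries and between 319 and 504 CPM in the R2b libraries, and Oc90, an otic marker, was at 660 CPM or above in every library.

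In control otocysts, Six2 and Eya1 had the highest levels per transcript length and Dach2 the lowest. At E9.75+12h the con levels per kb of exon were 91.4 ± 7.41 CPM for Six2 and 72.7 ± 1.98 CPM for Eya1 (SD, n = 3). Dach1, at 29.1 ± 2.62 CPM per kb, and Eya3, at 27.6 ± 2.32 CPM per kb, did not differ beyond their spread. Six5 followed at 14.4 ± 0.47, Six4 at 12.3 ± 0.43, Eya4 at 11.1 ± 0.86 and Eya2 at 10.6 ± 1.66 CPM per kb, where Six4, Eya4 and Eya2 overlap within 1 SD. Dach2 stood apart below all of them, at 3.78 ± 0.47 CPM per kb. Dach1 thus exceeded its paralog Dach2 in level per kb, and Eya1 exceeded the other Eya genes.

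At E9.25+24h the con order changed at the top, with Eya1 at 49.3 ± 2.33 and Six2 at 42.5 ± 9.46 CPM per kb (SD, n = 4), which overlap within 1 SD. Six2 was again first among libraries labelled con at E10.25+24h, at 96.6 ± 19.2 CPM per kb, ahead of Eya1 at 42.2 ± 2.79 CPM per kb. Dach1, at 33.4 ± 12.1 CPM per kb under that label, overlapped Eya1 within 1 SD. Dach2 was last in all 3 exposures. Exon length here is the union over annotated transcripts, so a gene that uses short isoforms is understated. Levels of different exposures were not tested against each other, because exposure, stage and sequencing request cannot be told apart.

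**Figure D1:**
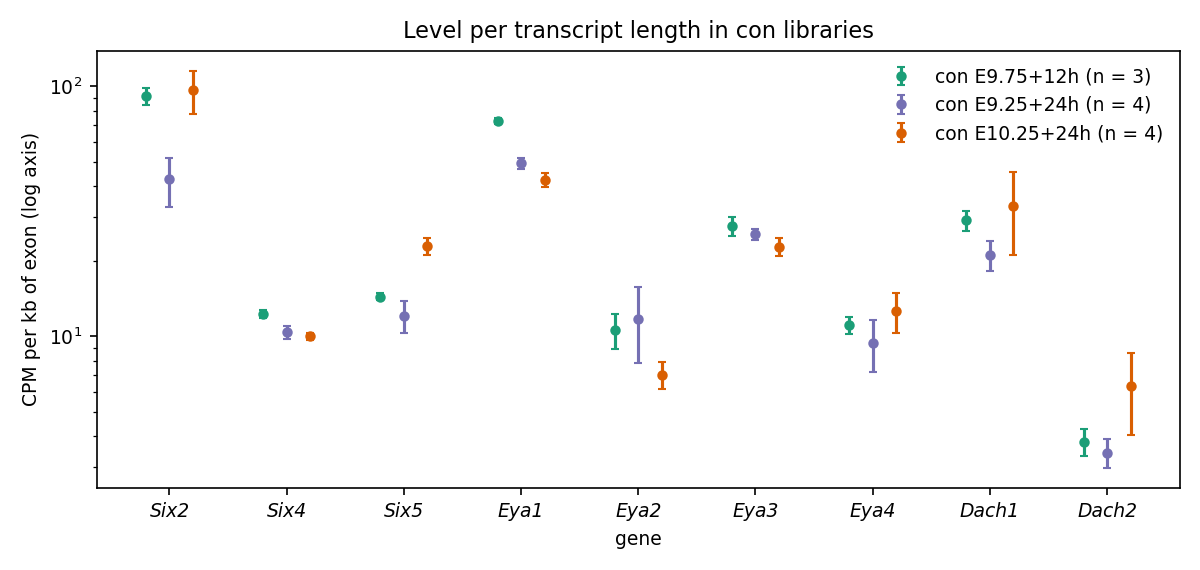
Level per kb of exon (CPM per kb, log axis) of each gene in con libraries of the 3 exposures; points are means and bars are 1 SD over litters (n = 3, 4 and 4). By mean, Six2 and Eya1 are highest and Dach2 lowest in each exposure, with E10.25+24h taken as labelled. In that exposure Dach1 overlaps Eya1 within 1 SD.

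At E9.75+12h, 12 hours of blockade lowered Six2 and raised Eya2, Dach1, Dach2 and Six5. These 5 of 9 genes passed the test, 4 higher and 1 lower, where 20% of 14882 genes tested passed (1518 higher and 1455 lower). The groups did not overlap for 8 of the 9 genes, against 39.1% of all genes. The median log2 fold change of the 9 was 0.29, against 0.01 over all genes tested. Eya1 was the exception with overlapping groups.

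At E9.25+24h, with 24 hours of blockade ending at the same stage, Six2 fell and Dach1 and Dach2 rose. These 3 of 9 passed, 2 higher and 1 lower, where 15.6% of 14979 genes passed (1362 higher and 973 lower). The same 3 were the genes whose groups did not overlap, against 22.4% of all genes. The median log2 fold change of the 9 was 0.01, against -0.01 over all genes. At E10.25+24h 0 of the 9 passed as labelled, and 0 of 15203 genes did (0%), also by DESeq2, with 175 genes and 0 members at an unadjusted p under 0.05 in edgeR.

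**Figure D2:**
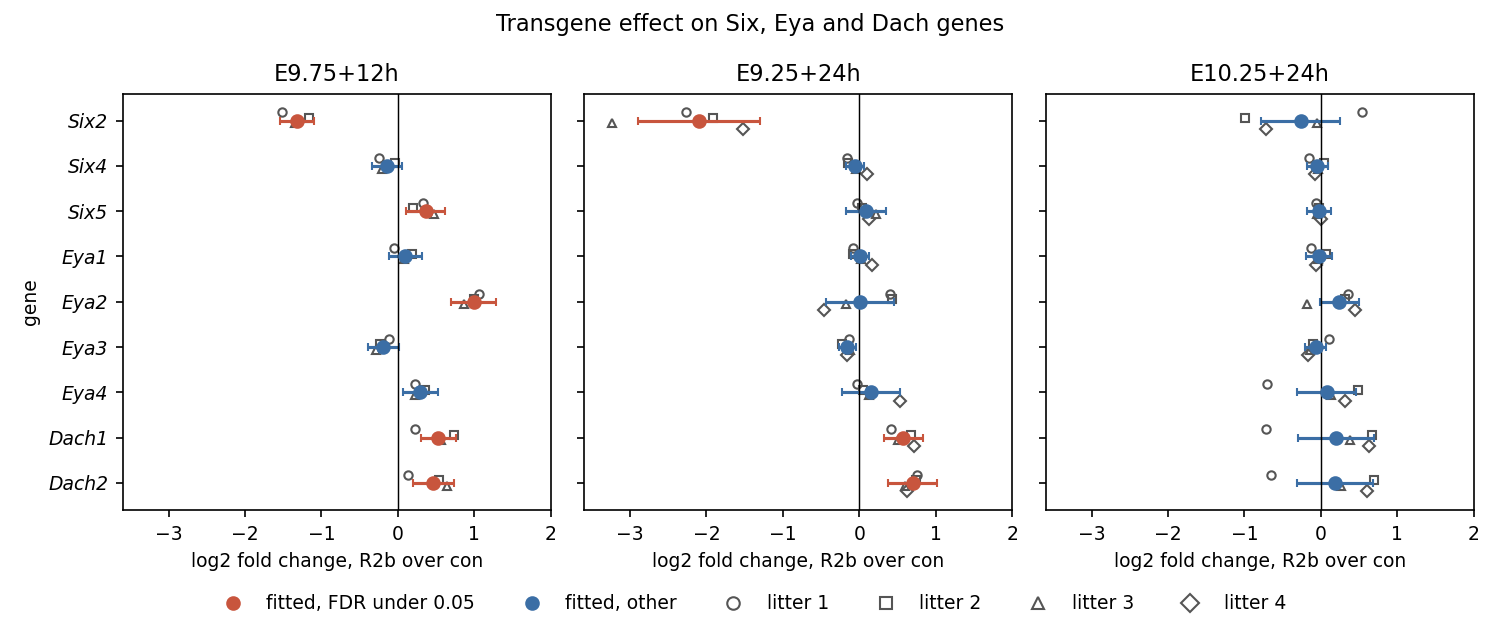
Log2 fold change of R2b over con for each gene in each exposure; filled points are fitted values with 95% intervals (red where the adjusted p is under 0.05) and open symbols are single litters. Six2 lies left of 0 in all 7 litters of E9.75+12h and E9.25+24h, and Dach1 and Dach2 lie right of 0 in the same 7.

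Six2, best known for keeping nephron progenitors of the kidney undifferentiated, is a gene of 2119 exonic bases on the minus strand (chr17:85684277-85688274, GRCm38). At E9.75+12h its levels were 202, 176 and 203 CPM in con litters 1 to 3 and 70.9, 78.6 and 80.3 CPM in R2b. Every con library was above every R2b library. Six2 was thus 2.49-fold lower in R2b (log2 fold change -1.32, SE 0.10, adjusted p = 8.06e-05).

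After the longer exposure, Six2 was at 111, 103, 70.2 and 75.9 CPM in con litters 1 to 4 and at 23.0, 27.1, 7.34 and 26.4 CPM in R2b. Groups were again apart, and the R2b library of litter 3 was the lowest of all. This was 4.28-fold lower in R2b (log2 fold change -2.10, SE 0.36, adjusted p = 0.00777). With litter 1 left out the change was -2.03 with an adjusted p of 0.0775, and with litter 2 left out it was -2.16 with 0.0623. The call was thus lost in both fits, while the size was kept. These fits called 322 and 460 of all genes, against 2335 with all litters. The effects of the E9.75+12h and E9.25+24h exposures differed by -0.77 (95% interval -1.65 to 0.12, adjusted p = 0.471), so a larger fall after 24 hours was not shown.

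Six2 is also expressed in mesenchyme of several organs, and markers of mesenchyme were present in the dissections. Of 9 tested mesenchyme markers 1 passed at E9.75+12h, Lum, and it was higher in R2b (log2 fold change 1.15), and 0 passed at E9.25+24h. Of all genes, 20% and 15.6% passed in these exposures. With litter as a block 2 of the 9 passed at E9.25+24h, Prrx2 (adjusted p = 0.00158) and Lum (adjusted p = 0.00361), where 40.6% of all genes did. These 2 went in opposite directions, with log2 fold changes without the block of -0.52 for Prrx2 and 0.53 for Lum. The summed level of 11 such markers was 118 to 384 CPM in con and 220 to 395 CPM in R2b for the shorter exposure. It was 87.1 to 1309 CPM in con and 96.0 to 1205 CPM in R2b at E9.25+24h. The sum was higher in R2b than in con in litters 1 and 2 of E9.75+12h and in litters 1, 2 and 3 of E9.25+24h. It was lower in R2b in litter 3 of E9.75+12h (384 to 239 CPM) and in litter 4 of E9.25+24h (1309 to 1205 CPM), and Six2 was lower in R2b in all 7 of these litters. In the R2b library of E9.25+24h litter 3, 1 of the 11 markers was at 0. Litter 3 of E9.25+24h had the lowest sum of that exposure in both genotypes, 87.1 CPM in con and 96.0 CPM in R2b, and also the lowest Six2. Con litter 4 of that exposure had the highest sum, 1309 CPM. Its Six2, 75.9 CPM, was below that of con litters 1 and 2 (111 and 103 CPM). The part of mesenchyme in the Six2 values was not tested.

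Six4 (chr12:73099609-73113456, minus strand), a homeobox gene that acts in muscle and sensory development, moved little. Its con libraries at E9.75+12h held 136, 128 and 136 CPM and its R2b libraries 115, 124 and 117 CPM. The groups did not overlap, but the log2 fold change of -0.14 (95% interval -0.33 to 0.05) did not pass (adjusted p = 0.284). At E9.25+24h con was at 103 to 118 CPM and R2b at 105 to 111 CPM, with a log2 fold change of -0.06 (95% interval -0.18 to 0.06, adjusted p = 0.470).

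Six5 (chr7:19094594-19098549, plus strand), the neighbour of the myotonic dystrophy gene Dmpk, passed narrowly at E9.75+12h. Its levels were 44.0, 41.8 and 44.4 CPM in con and 55.5, 47.9 and 61.9 CPM in R2b, with no overlap. The rise of 0.37 (SE 0.12, adjusted p = 0.0460) did not pass with litter as a block (adjusted p = 0.0910), with median-of-ratios size factors (0.0514) or with no filter (0.0533), and was called in 2 of 9 fits that left out a library or a litter. These were the fits without litter 2 and without its R2b library, and the change stayed between 0.27 and 0.46 in all 9. At E9.25+24h Six5 was at 28.6 to 41.2 CPM in con and 33.3 to 41.2 CPM in R2b, which overlap almost fully (log2 fold change 0.08, adjusted p = 0.669). The difference between these exposures was -0.27 (95% interval -0.58 to 0.05, adjusted p = 0.481).

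Ratios between Six2, Six4 and Six5 test directly whether the paralogs differ in response. Ratios were taken within each library, and con and R2b labels were permuted within E9.75+12h and E9.25+24h together, a two-sided exact permutation test over 1400 arrangements. The log2 ratio of Six2 to Six4 changed by a mean of -1.66 in R2b (exact p = 0.00143, adjusted p = 0.00476 over 10 paralog pairs), in all 7 litters. For Six2 to Six5 the change was -1.98 with the same p values, also in all 7 litters. Six4 to Six5 changed by -0.32 (exact p = 0.0143, adjusted p = 0.0310), lower in 7 of 7 litters. The value 0.00143 is the smallest these permutations can give. Leaving out any single litter of E9.75+12h, or litter 1 or 2 of E9.25+24h, ended the call for Six4 to Six5 (adjusted p up to 0.103).

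**Figure D3:**
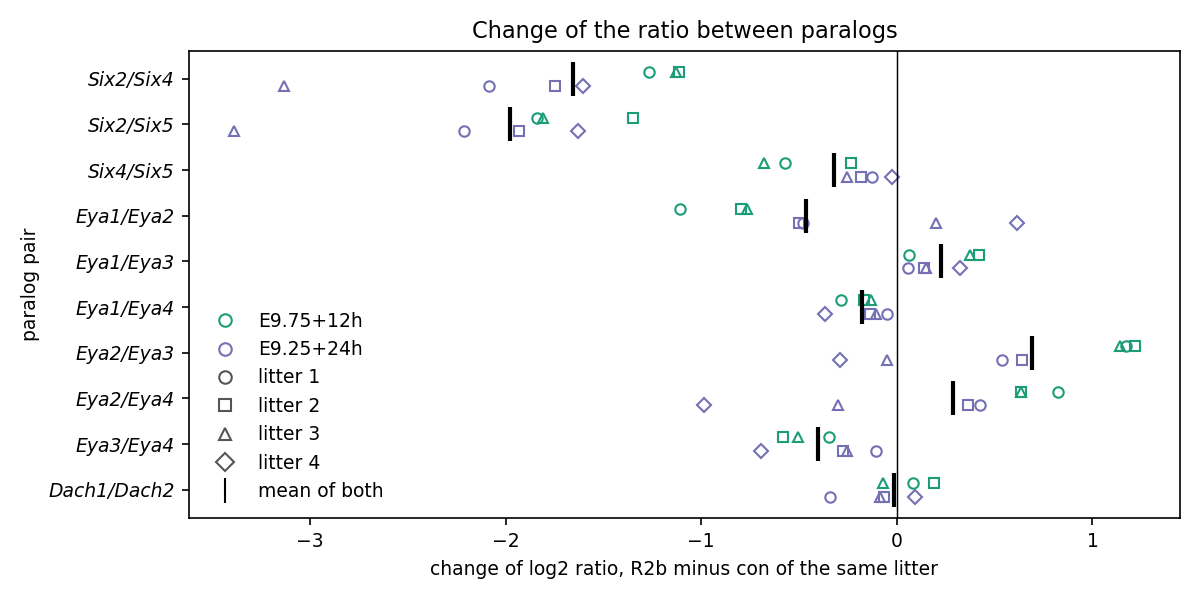
Change of the log2 ratio between paralogs, R2b minus con of the same litter, at E9.75+12h (green) and E9.25+24h (purple); symbols are litters 1 to 4 and the bar is the mean of both exposures. Ratios with Six2 as numerator lie between -3.39 and -1.11 in every litter, and Dach1 to Dach2 lies on both sides of 0, from -0.34 to 0.19.

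Eya1 (chr1:14168954-14310235, minus strand), the Eya gene required for the early ear, did not pass in any exposure. At E9.75+12h it was at 572, 580 and 550 CPM in con and 550, 658 and 584 CPM in R2b, and the groups overlapped. Its change was 0.10 on the log2 scale with a 95% interval of -0.11 to 0.31 (adjusted p = 0.502). At E9.25+24h con ranged from 358 to 399 CPM and R2b from 369 to 404 CPM, and the interval of the change was narrower, -0.11 to 0.13 (log2 fold change 0.01, adjusted p = 0.926).

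Eya2 (chr2:165595032-165771727, plus strand), expressed in cranial placodes and their sensory ganglia, had the largest rise of the 9 at E9.75+12h. Its levels were 30.1, 27.2 and 36.8 CPM in con and 62.9, 54.2 and 67.0 CPM in R2b. The lowest R2b library was well above the highest con library. Eya2 was 1.99-fold higher in R2b (log2 fold change 0.99, SE 0.13, adjusted p = 0.00106), and it passed in each fit that left out a library or a litter.

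After 24 hours from E9.25 no such rise was measured. Eya2 stood at 26.2, 27.6, 34.1 and 51.6 CPM in con and at 34.8, 37.0, 30.1 and 37.4 CPM in R2b. The groups overlapped: con litter 4 was above every R2b library, and con litter 3 was above R2b litter 3. Fitted over the 4 litters, the log2 fold change was 0.01 (95% interval -0.44 to 0.45, adjusted p = 0.989), and 0.25 without that con library (adjusted p = 0.186). The effects of both exposures differed by -0.97 (95% interval -1.50 to -0.44, unadjusted p = 0.00104 in edgeR), which did not pass over all genes (adjusted p = 0.185, where 0 of 15688 genes passed, 0%, and 1908 had an unadjusted p under 0.05). DESeq2 called this difference for Eya2, as 1 of 99 genes.

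Neuroblast markers, like Eya2, were higher in R2b at E9.75+12h. At E9.75+12h the summed level of 10 otic neuroblast markers, among them Neurog1 and Neurod1, was 297 to 339 CPM in con. In R2b it was 434 to 494 CPM, and 6 of the 10 passed, all higher, where 20% of all genes passed. At E9.25+24h the sum was 206 to 233 CPM in con litters 1 to 3, against 216 to 239 CPM in R2b. Con litter 4, the library with the highest Eya2, was at 451 CPM. In that exposure 0 of 10 passed, where 15.6% of all genes did. With litter as a block 4 of the 10 passed there, Neurog1 (adjusted p = 0.0139), Isl1 (0.000225), Elavl3 (0.0470) and Elavl4 (0.0315), where 40.6% of all genes did. Without the block their log2 fold changes were 0.39, -0.74, -1.27 and -0.91. That con library also had the highest sums of its genotype and exposure for blood, 1633 CPM, and mesenchyme, 1309 CPM. At E10.25+24h the neuroblast sum was 191 to 254 CPM labelled con and 188 to 621 CPM labelled R2b. Under the con label litter 1 had the highest sum and the lowest Eya2, 18.4 CPM. Under the R2b label litter 4 had the highest sum, with Eya2 at 25.9 CPM, against 27.6 CPM in litter 2. The part of neuroblast, blood and mesenchyme cells in the Eya2 values was not tested.

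Eya3 (chr4:132638987-132724765, plus strand), a broadly expressed member, had the smallest SE of the 9 genes in the longer early exposure. At E9.75+12h it was at 142, 159 and 167 CPM in con and 131, 135 and 137 CPM in R2b, apart but not past the test (log2 fold change -0.19, adjusted p = 0.165). At E9.25+24h its levels were 137, 145, 141 and 155 CPM in con and 125, 124, 129 and 138 CPM in R2b. R2b was below con in 4 of 4 litters, although the groups overlapped. The log2 fold change of -0.16 (SE 0.05) had an adjusted p of 0.0612 without and 0.00362 with litter as a block, and DESeq2 also called it (adjusted p = 0.0239). At E9.75+12h it passed when all 22 libraries shared 1 fit (adjusted p = 0.0283). Of all genes, 40.6% passed in that blocked fit.

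Eya4 (chr10:23102963-23350786, minus strand), the Eya gene of progressive deafness, was at 113, 104 and 96.8 CPM in con and 132, 133 and 113 CPM in R2b of E9.75+12h. R2b was higher in 3 of 3 litters, and litter 3 of R2b was only just above litter 1 of con. Its change of 0.29 on the log2 scale (95% interval 0.06 to 0.52) did not pass (adjusted p = 0.0696). At E9.25+24h, con ranged from 67.5 to 108 CPM and R2b from 80.5 to 109 CPM (log2 fold change 0.15, adjusted p = 0.568).

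Of the 6 Eya pairs, 3 passed the test of the ratio, and each of these has Eya3 in it. Eya1 to Eya3 rose in R2b by 0.23 (exact permutation p = 0.00143, adjusted p = 0.00476) in 7 of 7 litters. Eya3 to Eya4 changed by -0.41 (exact permutation p = 0.0186, adjusted p = 0.0310) in 7 of 7 litters. Eya2 to Eya3 changed by 0.69 (exact permutation p = 0.0171, adjusted p = 0.0310) in 5 of 7 litters, and with litters as pairs its adjusted p was 0.0893. The Eya3 to Eya4 call was lost in 6 of 7 fits without a litter (all but E9.25+24h litter 3), and the Eya2 to Eya3 call in 5 (those without any litter of E9.75+12h or without litter 1 or 2 of E9.25+24h), with adjusted p up to 0.103 for both.

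The remaining Eya pairs did not pass. Eya1 to Eya2 changed by -0.47 (exact permutation p = 0.0657, adjusted p = 0.0939), although in litter 4 of E9.25+24h it changed by 0.62. Without that litter the change was -0.58 and passed (adjusted p = 0.0200). Eya1 to Eya4 changed by -0.18 (exact permutation p = 0.121, adjusted p = 0.152), lower in 7 of 7 litters, and passed with litters as pairs (adjusted p = 0.0260). Eya2 to Eya4 changed by 0.29 (exact permutation p = 0.284, adjusted p = 0.316), ranging from -0.99 to 0.82 over litters.

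Dach1 (chr14:97786853-98169765, minus strand), a corepressor of eye, limb and kidney, rose in both exposures that end at E10.25. At E9.75+12h it was at 232, 194 and 214 CPM in con and 271, 322 and 316 CPM in R2b. No R2b library reached down into the con range. Dach1 was 1.44-fold higher in R2b (log2 fold change 0.53, SE 0.11, adjusted p = 0.00617), and the adjusted p was 0.0576 when all 22 libraries shared 1 fit.

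Litters of E9.25+24h had Dach1 at 176, 165, 150 and 126 CPM in con and 234, 263, 213 and 208 CPM in R2b, with the groups apart and each litter higher in R2b. That is 1.49-fold higher (log2 fold change 0.58, SE 0.11, adjusted p = 0.0139). Without litter 1, 2 or 3 the adjusted p was 0.0684, 0.0718 or 0.0515, with changes of 0.63, 0.55 and 0.60. The size at 12 and 24 hours differed by 0.06 with a 95% interval of -0.48 to 0.60.

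Dach2 (chrX:113297510-113836386, plus strand), the X-linked paralog, moved by a like amount at a lower level. At E9.75+12h it was at 42.6, 34.1 and 35.3 CPM in con and 46.8, 49.8 and 55.0 CPM in R2b, and con litter 1 came close to R2b litter 1. The rise was 0.46 on the log2 scale (SE 0.12, adjusted p = 0.0234), but with litter as a block the adjusted p was 0.0666, and with all 22 libraries in 1 fit it was 0.123. It passed in 3 of 9 fits that left out a library or a litter, those without the R2b library of litter 1 or 2 or the con library of litter 1.

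At E9.25+24h Dach2 was at 35.6, 39.3, 30.4 and 29.9 CPM in con and 60.2, 65.6, 45.9 and 46.3 CPM in R2b. Each R2b library was above each con library. Dach2 was 1.62-fold higher in R2b (log2 fold change 0.70, SE 0.14, adjusted p = 0.0155). Without litter 1 the change was 0.67 (adjusted p = 0.104), without litter 2 it was 0.69 (0.0542) and without the R2b library of litter 1 it was 0.64 (0.0548).

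No difference between the responses of the Dach paralogs was detected at E9.75+12h and E9.25+24h. Their log2 ratio changed by -0.016 (exact permutation p = 0.797, adjusted p = 0.797), from -0.34 to 0.19 in single litters and lower in 4 of 7. Across all 22 libraries, with each exposure centred on its own mean, Pearson's r of Dach1 and Dach2 was 0.96. The libraries share litters and genotypes, so this r is a description. By the same measure Eya3 ran against Dach1 (r = -0.87), Six2 ran against it less closely (r = -0.66), and Eya4 ran with it (r = 0.75).

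**Figure D4:**
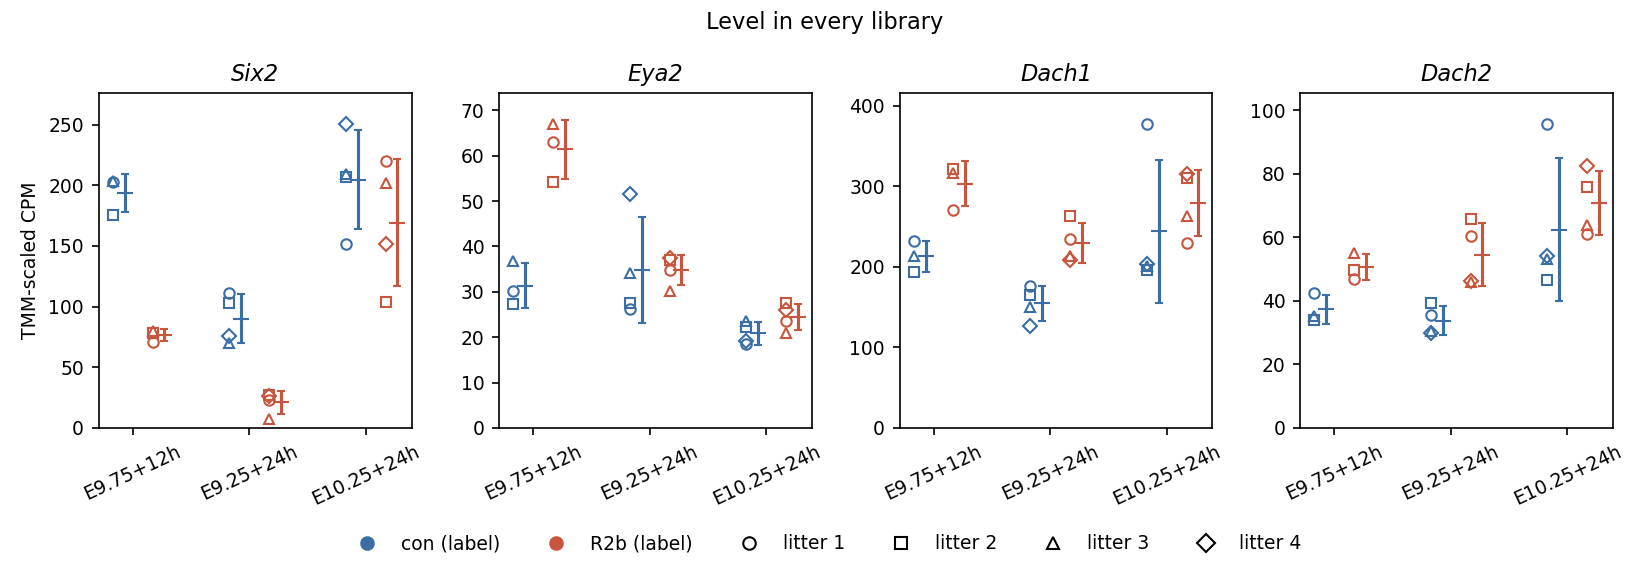
TMM-scaled CPM of Six2, Eya2, Dach1 and Dach2 in each of the 22 libraries by exposure and labelled genotype; symbols mark litters and bars show the mean and 1 SD. Six2 is lower and Dach1 and Dach2 are higher in R2b without overlap at E9.75+12h and E9.25+24h, Eya2 is higher without overlap at E9.75+12h, and at E10.25+24h the labelled groups overlap for all 4 genes.

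Among markers of other cells, the hindbrain sum moved with genotype in the same exposures as the Dach genes, mostly through 1 gene, Irx3. Of 6 hindbrain markers found in the table, their summed level was 232 to 266 CPM in con and 403 to 442 CPM in R2b for E9.75+12h, and 141 to 254 CPM in con and 271 to 365 CPM in R2b at E9.25+24h. Only Irx3 passed, 1 of 6 in each exposure, where 20% and 15.6% of all genes passed. With litter as a block Irx3 was again the only 1 of 6, where 11.9% and 40.6% of all genes passed. Its log2 fold change was 0.83 in both, and it made up most of the sum, at a con mean of 228 CPM at E9.75+12h. The next highest, Zic1, had con and R2b means of 12.9 and 12.8 CPM there, and Pax3 was under 1 CPM. Of 12 otic epithelial markers, 5 rose and 1 (Epcam, -0.31) fell at E9.75+12h, where 20% of all genes passed. At E9.25+24h 3 rose and 2 (Hmx2 and Hmx3) fell, where 15.6% of all genes passed. With litter as a block 9 of the 12 passed at E9.25+24h, where 40.6% of all genes did. Lmx1a, a LIM-homeodomain gene of the otic epithelium, rose by 0.53 and 0.60 in the same exposures as the Dach genes. The part of cell makeup in the Dach values was not tested.

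At E10.25+24h the members could not be read from the labels alone, because transgene reads and labels part ways. From litter 1 to litter 4, Ighg1 was at 679, 1.42, 201 and 0.736 CPM with the con label. With the R2b label it was at 54.6, 1155, 817 and 823 CPM. In litter 1 the library labelled con held more transgene reads than the library labelled R2b, and in litter 3 the library labelled con held them too. Fgfr2 likewise differed within litter 1, with 879 CPM in the library labelled con of litter 1 and 313 CPM in the library labelled R2b of that litter.

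Under the con label Dach1 was at 377, 195, 201 and 203 CPM, and under the R2b label it was at 230, 310, 262 and 315 CPM. The con label of litter 1 was the highest of all 8. The within-litter differences were -0.72, 0.67, 0.38 and 0.64 on the log2 scale, so litter 1 ran against the others. Dach2 did the same, with differences of -0.65, 0.70, 0.27 and 0.61, and Eya4 with -0.71, 0.49, 0.14 and 0.32. Six2 was at 152, 207, 209 and 251 CPM under the con label and 220, 104, 202 and 152 CPM under the R2b label, with differences of 0.53, -0.996, -0.05 and -0.72. In litter 1 each of these 4 genes had the sign opposite to the other litters, and litter 3 had the smallest of the other 3 differences for each.

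As labelled, the fitted log2 fold changes at E10.25+24h were 0.20 for Dach1, 0.19 for Dach2, 0.08 for Eya4 and -0.26 for Six2 (adjusted p = 0.9999 for each). Without litter 1 they were 0.59 (adjusted p = 0.0756), 0.55 (0.105), 0.34 (0.193) and -0.52 (0.307), and 0 of 15195 genes passed (0%; 2430 at an unadjusted p under 0.05). Without litter 1 and with litter as a block, Dach1 (0.58, adjusted p = 0.0198) and Dach2 (0.54, adjusted p = 0.0317) passed, where 4.04% of all genes did. Eya4 (0.33, adjusted p = 0.0521) and Six2 (-0.57, adjusted p = 0.1) did not. Eya2 stood apart from these 4 genes: it was at 18.4, 22.2, 23.7 and 19.1 CPM labelled con and 23.6, 27.6, 20.8 and 25.9 CPM labelled R2b, and litter 1 had the same sign as litters 2 and 4. Its log2 fold change was 0.24 (95% interval -0.02 to 0.50, adjusted p = 0.9999).

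**Figure D5:**
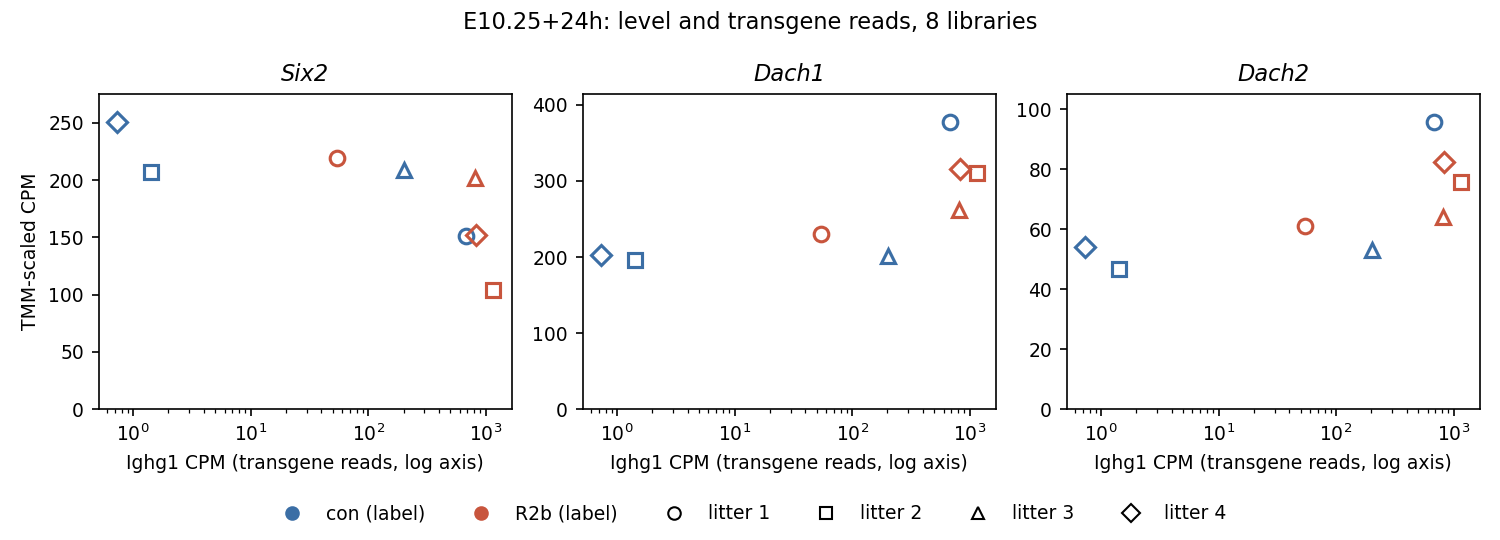
Level of Six2, Dach1 and Dach2 (TMM-scaled CPM) against Ighg1 CPM (log axis), a measure of transgene reads, in the 8 libraries of E10.25+24h; colour is the labelled genotype and symbols are litters. The library labelled con of litter 1, at 679 CPM of Ighg1, has 377 CPM of Dach1 and 95.6 CPM of Dach2, the highest of the 8.

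The other members varied little at E10.25+24h. Six4 was at 104 to 111 CPM labelled con and 93.6 to 114 CPM labelled R2b, and Six5 at 63.6 to 75.2 and 63.9 to 71.7 CPM. Eya1 was at 309 to 355 CPM labelled con and 282 to 341 CPM labelled R2b, and Eya3 at 113 to 137 and 119 to 124 CPM. As labelled, their log2 fold changes lay between -0.07 and -0.03. Within litters 1 to 4 Eya3 differed by 0.11, -0.11, -0.14 and -0.16, so litter 1 ran against the others here too. Without litter 1 its log2 fold change was -0.12 (adjusted p = 0.251 in edgeR). With litter as a block as well, the adjusted p was 0.166. The Six2 effect at E10.25+24h differed from that at E9.25+24h by 1.83 (SE 0.39, unadjusted p = 0.000151 in edgeR), which did not pass over all genes (adjusted p = 0.112, where 0 of 15688 genes passed, 0%, and 1344 had an unadjusted p under 0.05). DESeq2 called it as 1 of 73 genes, and edgeR called it without E10.25+24h litter 2, as 1 of 69 genes. With litter 1 left out instead, 0 of 15671 genes passed in edgeR. For Dach2 the difference was -0.51 (95% interval -1.04 to 0.02, adjusted p = 0.608). Both differences use the groups as labelled, with litter 1 of E10.25+24h included. Without that litter the E10.25+24h changes were 0.55 for Dach2 and -0.52 for Six2, against 0.70 and -2.10 at E9.25+24h.

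Partners of the network included Pax2, the TLE corepressors and the SALL and TSHZ factors, and Pax2 and Sall1 rose in the exposures that end at E10.25. Of 28 such genes, 4 passed at E9.75+12h, 3 higher and 1 lower, where 20% of all genes passed (median log2 fold change 0.09). Pax2, which acts beside the network in the ear and kidney, rose by 0.78 (adjusted p = 0.00153), from a mean of 297 to 500 CPM. Sall1, a zinc-finger repressor needed in the kidney, rose by 0.65 (adjusted p = 0.00189). Tshz1, a teashirt zinc-finger factor, rose by 0.35 (adjusted p = 0.0359). Pa2g4, a growth regulator that binds ErbB3, fell by 0.63 (adjusted p = 0.00159). With litter as a block, Tshz1 no longer passed, leaving 3, where 11.9% of all genes passed.

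At E9.25+24h 3 of the 28 passed, where 15.6% of all genes did (median log2 fold change -0.07). Pax2 rose by 0.64 (adjusted p = 0.000768) and Sall1 by 0.53 (adjusted p = 0.0317), so both passed in each exposure that ends at E10.25. Smarcc1, a chromatin remodelling subunit, fell by 0.19 (adjusted p = 0.0239). With litter as a block 14 passed, where 40.6% of all genes did, and at E10.25+24h 0 of 28 passed.

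Genes reported as targets of the network went in both directions. Of 14 tested at E9.75+12h, 3 rose and 3 fell, where 20% of all genes passed (median log2 fold change -0.10). Ccna2, a cyclin of S phase and mitosis, fell by 0.92 (adjusted p = 0.00114), and Ccnd1, the G1 cyclin that DACH proteins can repress, fell by 0.57 (adjusted p = 0.00423) from a mean of 1219 to 808 CPM. Slc12a2, the sodium-potassium-chloride cotransporter, fell by 0.36 (adjusted p = 0.0351). Neurog1, which starts otic neurogenesis, rose by 0.78 (adjusted p = 0.00144), and Neurod1, which follows it, rose by 0.53 (adjusted p = 0.00492). Neurog1, Neurod1 and Isl1 are also in the neuroblast marker list, so these counts are not separate.

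At E9.25+24h 3 of the 14 passed, all lower, a share near the 15.6% of all genes (median log2 fold change -0.02). These were Ccnd1 (-0.54, adjusted p = 0.00119), Ccna2 (-0.33, adjusted p = 0.0286) and Slc12a2 (-0.21, adjusted p = 0.0318). The same 3 genes had fallen at E9.75+12h. With litter as a block 5 of 14 passed at E9.75+12h, where 11.9% of all genes did. At E9.25+24h 6 of 14 passed with the block, where 40.6% of all genes did. At E10.25+24h 0 passed.

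The genes most like each responding member were found by Pearson's r of exposure-centred log2 CPM over the 22 libraries. Most like Six2 were Nhs (r = 0.94), Vash2 (0.93) and Phf19 (0.92). Eif5a2 was among the closest genes of both Dach paralogs, with r of 0.96 to Dach1 and 0.97 to Dach2. The others closest to Dach1 were Sdc2 and Plekhb1 (r = 0.96 each), and those closest to Dach2 were Rdh10 (0.98) and Nudt16 (0.97). Likeness was lower for Eya2, with Gamt (0.84), Amacr (0.83) and Tubb2a (0.82), and for Six5, with Qsox1 and Ubald1 (0.89 each) and Bcl9l (0.88). These r values share libraries, litters and the genotype difference itself.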

How the data were processed

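Epithelia of otocysts were pooled by genotype for each pregnant female, and oligo(dT)-selected stranded libraries were made, per the labels' protocols. The deposited values are raw read counts per gene, whole numbers with different column totals. Per the submitters' processing notes, Novoalign 2.08.03 and mm10 were used; the counting tool, annotation and any filter are not given in the sources used here. Symbols and positions came from GENCODE M21 on GRCm38 (15522 genes with a symbol, 214 without), and no exon of a member is shared with another annotated gene. Promoter sequences came from RefSeq on GRCm38.p6, and the motifs were chosen after the sequences were seen.

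Columns were joined to samples by the library numbers in the titles. Of 24 samples, 2 (E9.75+12h) had no column in use, and 2 columns that name no sample were not used. Each exposure was fitted alone in edgeR 4.0.16 under R 4.3.3 (filterByExpr, TMM, glmQLFit, glmQLFTest, adjusted p under 0.05; prior count 0.125 for fold changes and 2 for log2 CPM). SEs come from the F statistic. Differences between exposures were contrasts of 6 group means over all 22 libraries. Paralog ratios used CPM plus 0.5. Reads carry no molecular identifiers. The fits were tested on simulated data.

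A litter is a female that gave a con and an R2b pool, which the shared date or number in the titles shows. As a check, same-litter deviations correlated at r of -0.28 to -0.133 for E9.75+12h, where the pairing thus rests on the labels. For E9.25+24h they correlated at 0.461 to 0.807, and for E10.25+24h at -0.139 in litter 1 and 0.278 to 0.404 in the others.

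Genes and lists were chosen with earlier results of these data known, and 1 gene of the partner list is not reported here. Named are all members, up to 5 called genes per list (partners, targets) and exposure by smallest adjusted p, and the 3 genes most like each called member (mean CPM of at least 1). Alternatives were other size factors, no filter, a mean CPM of at least 1, robust dispersion, 1 fit for all libraries, DESeq2 1.42.0, litter as a block and fits without a library or litter.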

Additional observations from a re-analysis of the deposited data

Results flagged for a closer look

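In groups of 4 libraries, the highest or lowest was compared with the others by Dixon's ratio of gap to range (95% critical value). Of 36 groups tested, 3 had such a library, and chance gives about 1 in 20. All 3 are the library labelled con of litter 1 at E10.25+24h, with 151 CPM of Eya4, 377 CPM of Dach1 and 95.6 CPM of Dach2. The other libraries labelled con were at 105 to 111 CPM of Eya4, 195 to 203 CPM of Dach1 and 46.7 to 53.9 CPM of Dach2. This library held 679 CPM of Ighg1, against 54.6 CPM in the library labelled R2b of its litter.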

How the results depend on the processing

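With litter as a replicate block, 3 members passed at E9.75+12h (1775 of all genes) in place of 5 (2973), and 4 at E9.25+24h (6086 of all genes) in place of 3 (2335). Among members and paralog pairs, the blocked fit changed no other call beyond those given beside Six5, Dach2, Eya3, the Eya ratios and the E10.25+24h genes. Its counts for marker, partner and target lists stand beside those lists. At E10.25+24h the block without litter 1 called 2 members (614 genes). Without litters 1 and 3, an alternative chosen after seeing the data, the block called 4 (877 genes), Six2, Eya4, Dach1 and Dach2, and no block called 0 (5 genes). DESeq2 called 1 member in each difference of effects, where edgeR called 0. Each exposure alone gave 0 paralog pairs in place of 6, where at E9.75+12h no p below 0.1 is possible.

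Fits without a library or a litter called 3 to 5 members at E9.75+12h (434 to 4583 genes), 0 to 4 at E9.25+24h (322 to 2289 genes; 0 without litter 1 or 2) and 0 to 4 at E10.25+24h. They called 0 to 1 members for the difference of the E10.25+24h effect from that of E9.25+24h, and 3 to 6 paralog pairs. The cause was not tested.

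Signs turned only for small changes. Eya2 at E9.25+24h was -0.0027 with all libraries in 1 fit and -0.11 to 0.25 in the leave-out fits. In such fits Eya1 at E9.25+24h was -0.044 to 0.055 and Six5 -0.015 to 0.15. At E10.25+24h they gave -0.068 to 0.029 for Eya1, -0.083 to 0.34 for Eya4, -0.092 to 0.0031 for Six4 and -0.065 to 0.025 for Six5. With the block, Eya1 was 0.0094 without litter 1, and Eya4 was -0.078 without litter 2 and -0.018 without litter 4. Without litters 1 and 3, Six4 was 0.0031 (0.0021 with the block), Six5 0.011 (0.012) and Eya1 0.022 (0.024). The Dach1 to Dach2 ratio changed by 0.069 at E9.75+12h alone, by 0.013 at E10.25+24h alone, and by -0.048 to 0.025 without single litters. Eya2 to Eya4 changed by -0.12 at E9.25+24h alone.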
